A study of Mus musculus with 12 samples.

Results

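The high mobility group (HMG) chromatin genes were followed in cultured mouse neural progenitor cells with or without a floxed lamin B1 gene. The set held 9 of the 41592 gene symbols found once in all 4 deposited tables, and was a named list from the HMGA, HMGB and HMGN families: Hmga1 and Hmga2, then Hmgb1, Hmgb2 and Hmgb3, then Hmgn1, Hmgn2, Hmgn3 and Hmgn5. Hmgb4, which bears the family name, was not in that list and was too low to be tested at either day, with a mean of at most 0.0856 CPM in any group (CPM are counts relative to effective library size). All 9 passed the filter on low counts at both days. The design sets cells that lose lamin B1, a filament protein that lines the inner nuclear membrane, against cells that keep it.

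Neural progenitor cells are dividing cells that can give rise to neurons and glia. They came from C57BL/6 mice that were LaminB1fl/fl (cKO) or LaminB1+/+ (WT), and cells of both genotypes carried Ai3, a reporter that makes EYFP once Cre recombinase has acted. Every group, WT included, received a lentivirus in which a Sox2 promoter drives Cre, and EYFP-positive cells were sorted after 5 days or after 9 days. The 4 groups were therefore cKO and WT at day 5, and cKO and WT at day 9, each with 3 libraries of polyadenylated RNA. All cells grew with EGF and FGF-2 at 10 ng/ml each. The sort selects cells in which the reporter recombined, not cells in which Lmnb1 did, and Cre acts only where the Sox2 promoter of the virus is used. Whether replicates came from different cultures or animals is not said in the labels, so every p-value here is set against a spread between libraries that may be only technical.

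HMG proteins are abundant non-histone proteins of chromatin that bind DNA or nucleosomes with little sequence preference. HMGA proteins hold AT-rich DNA through AT hooks, HMGB proteins bend DNA with a pair of HMG boxes and an acidic tail, and HMGN proteins bind the nucleosome itself and counter its compaction by linker histones. In the developing mouse brain, HMGA and HMGB2 proteins are known for their high levels in dividing stem and progenitor cells and for effects on self-renewal and fate.

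The libraries held between 26720476 and 32127629 counts at day 5 and between 13315273 and 24662809 counts at day 9. Structural RNA together with Lars2 took 72.9%, 0.368% and 71.6% of counts in cKO libraries 1, 2 and 3 of day 9, against 16.1%, 35.1% and 18.1% in WT libraries. At day 5 that share was 14.7% in cKO library 2 and at most 0.512% in the other libraries. A pair of day 5 libraries stood apart across genotypes: cKO library 2 and WT library 1 deviated together from their group means over 14849 genes, with a correlation of 0.757. Summed neuron marker levels were 977 CPM in that cKO library and 853 CPM in that WT library, and lay between 314 and 363 CPM in the other day 5 libraries. Lmnb1 itself was measured first as a check of the labels. It lay between 37.8 and 45.0 CPM in cKO libraries and between 247 and 288 CPM in WT libraries at day 5, and between 32.8 and 39.4 CPM in cKO libraries and between 156 and 210 CPM in WT libraries at day 9 (adjusted p = 0.0493 and 1.85e-05, edgeR quasi-likelihood test with Benjamini-Hochberg adjustment). At day 5 this call was lost in each of the 6 fits that leave out 1 library (adjusted p between 0.130 and 0.582), although every cKO library was below every WT library at both days. CPM values were scaled within each day by edgeR's TMM factors. At day 9 these were 0.482, 1.73 and 0.519 in cKO libraries 1, 2 and 3, and 1.45, 1.13 and 1.405 in WT libraries 1, 2 and 3. The days come from separate tables, so a level at day 5 and a level at day 9 are shown side by side without a test.

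At day 5, no HMG gene was called different between the genotypes, but this fit could miss sizable changes. In counts simulated with the day 5 spread, it recovered 0 of 50 genes lowered and 0 of 50 raised by 1 on the log2 scale. At a change of 2, it recovered 22 of 50 lowered and 26 of 50 raised genes. Of the 9 members, 0 passed an adjusted p of 0.05 in edgeR, where 0.00673% of the 14849 genes tested did (1 gene, Lmnb1), and 0 had an unadjusted p under 0.05, as 0.599% of genes did. DESeq2 and limma also called 0 of 9. The adjusted p was 0.9999 for each member, and cKO and WT libraries overlapped for all 9, while 1.35% of all genes had every cKO library below every WT library and 1.5% above. At day 9, 7 of the 9 members were lower in cKO cells and 0 were higher: Hmga1, Hmgb1, Hmgb2, Hmgb3, Hmgn1, Hmgn2 and Hmgn3 fell, while Hmga2 and Hmgn5 did not pass the test. Over all 14617 genes tested at day 9, 22.6% were called lower and 21.0% higher, 43.6% in either direction (3308 and 3070 genes; with limma on log2(TPM + 1) of the deposited TPM, whose median over all genes was -0.91, 257 and 39, with 0 members called). The median log2 fold change, cKO minus WT, was -0.62 over the 9 members and 0.01 over all genes tested. For each of these 7 genes, cKO library 2 had the highest cKO level. With cKO libraries 1 and 3, those rich in structural RNA, left out together, the lone cKO library was assumed to vary like the WT libraries. Each of the 7 falls was then smaller, with log2 fold changes of -1.865 for Hmgb2, -1.19 for Hmgn2 and -0.54 for Hmgn1. In that fit Hmgb1 was at -0.47, Hmgb3 at -0.56, Hmga1 at -0.385 and Hmgn3 at -0.30 on the log2 scale. Hmga2 was at -1.60 and Hmgn5 at -0.49. With 1 library left out at a time, 6 of the 7 calls were kept in every fit, Hmgn3 being the exception. In sorted bulk RNA, fewer cells of a type and less RNA per cell cannot be told apart.

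**Figure D1:**
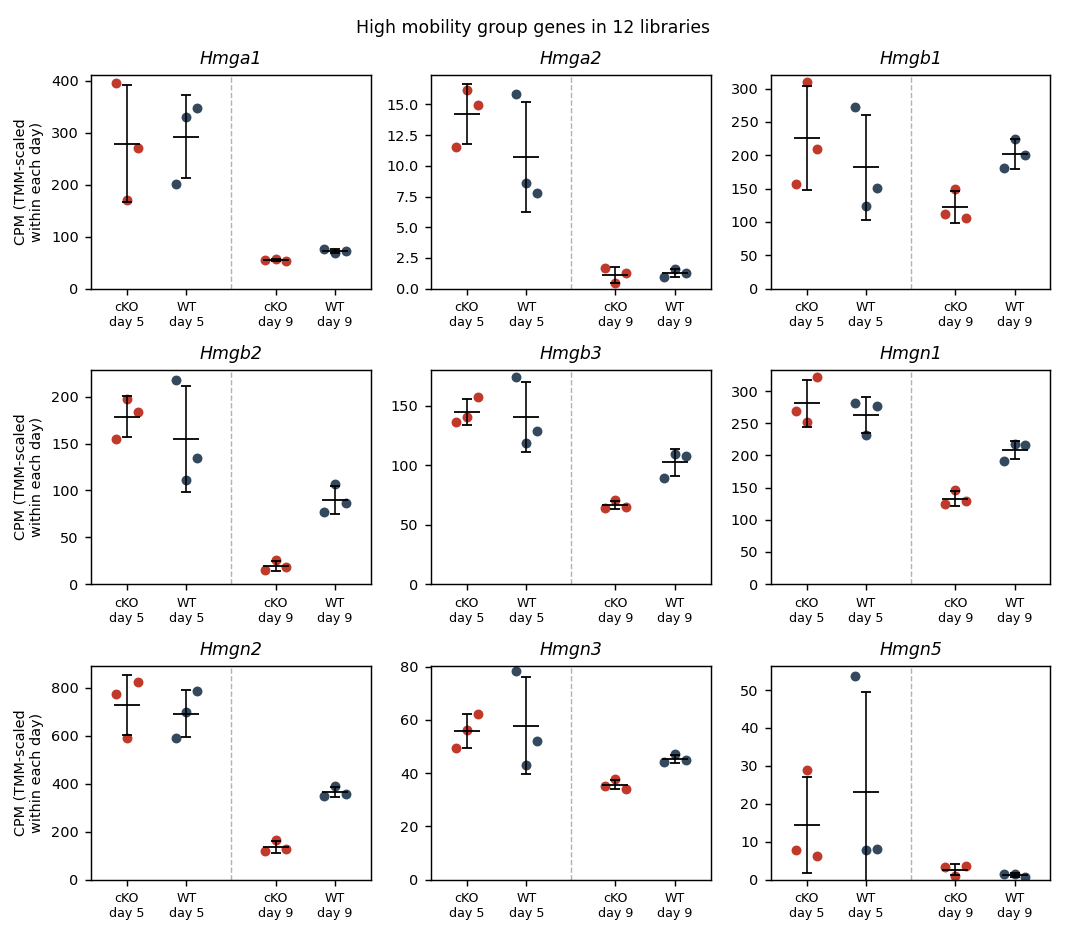
Level of each HMG gene in CPM (vertical axis, scaled within each day) in the 12 libraries, with cKO left of WT at day 5 and at day 9. Points are libraries 1 to 3 from left to right, the horizontal stroke is the group mean and the bars are 1 SD (cut off at 0); at day 5 the genotypes overlap for every gene, and at day 9 the cKO points of Hmgb2 and Hmgn2 lie far below the WT points.

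Of the HMGA genes, Hmga1 encodes the AT-hook protein made by most dividing cells. In mm10 it lies on chromosome 17 at 27556497 to 27563674 on the plus strand and overlaps AI413582 on the opposite strand, whose levels were 3.10 to 5.96 CPM in cKO libraries and 4.98 to 6.64 CPM in WT libraries at day 9. At day 5 it had 395, 170.2 and 270.4 CPM in cKO libraries, against 201, 329 and 347.5 CPM in WT libraries. The lowest value of each genotype was that of the library that stood apart, cKO library 2 and WT library 1, and the genotypes overlapped. The log2 fold change was -0.07 ± 0.37 (SE). At day 9 Hmga1 had 55.0, 56.5 and 52.8 CPM in cKO libraries, against 75.3, 68.6 and 72.8 CPM in WT libraries. All 3 cKO libraries were below all 3 WT libraries, as for 30.2% of all genes tested; 27.6% had the reverse order. Hmga1 fell by 0.40 ± 0.09 on the log2 scale, 1.32-fold (adjusted p = 0.00883, edgeR), and kept this call in each of the 6 fits that leave out 1 library. With cKO libraries 1 and 3 of day 9 left out together the log2 fold change was -0.38 and the adjusted p 0.107.

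Hmga2 encodes the HMGA protein of embryonic and fetal cells, and its transcript is a target of the let-7 microRNAs. It was among the lowest members, with 11.5, 16.2 and 14.9 CPM in cKO libraries and 15.8, 8.56 and 7.78 CPM in WT libraries at day 5 (log2 fold change 0.41 ± 0.35, 95% interval -0.27 to 1.08, and between 0.23 and 0.80 without 1 library). The highest library of each genotype was again the one that stood apart. At day 9 it rested on 11, 17 and 9 counts in cKO libraries and 34, 45 and 44 counts in WT libraries, which correspond to 1.72, 0.427 and 1.27 CPM in cKO libraries and to 0.961, 1.61 and 1.28 CPM in WT libraries. The lowest and the highest of the 6 levels were both from cKO cells, in libraries 2 and 1, so the genotypes overlapped. The log2 fold change was -0.34 ± 0.54 (adjusted p = 0.623, edgeR), with a 95% interval from -1.40 to 0.71 that spans a fall and a rise.

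The 13 genes listed for the LIN28, let-7 and HMGA2 pathway did not share 1 direction at day 9: of 10 tested, 3 were higher and 2 lower, near the 43.6% of all genes called in either direction, and their median log2 fold change was -0.10. Dicer1, the enzyme that cuts let-7 precursors, was higher at 56.2 ± 2.0 CPM in cKO cells and 31.2 ± 4.8 CPM in WT cells (SD, n = 3 each; adjusted p = 0.00193, edgeR), though its log2 fold change was -0.13 on log2(TPM + 1). Cdkn2b, a cell cycle inhibitor, was also higher, at 7.18 ± 1.28 CPM in cKO cells and 3.64 ± 0.75 CPM in WT cells (adjusted p = 0.00929, edgeR). Its log2 fold change turned to -0.0751 on log2(TPM + 0.1). Cdkn2b lies next to Cdkn2a, a locus known to be held down by HMGA2 in mouse neural stem cells. Cdkn2a itself was not called, at 6.07 ± 1.95 CPM in cKO cells and 9.00 ± 0.88 CPM in WT cells (log2 fold change -0.53, adjusted p = 0.098, edgeR). Mycn, a MYC family factor of progenitors, was higher by 1.62 ± 0.37 on the log2 scale (adjusted p = 0.0106, edgeR). Its levels were low, at 1.25, 1.18 and 1.83 CPM in cKO libraries, against 0.480, 0.430 and 0.436 CPM in WT libraries. Cdkn2c, a cyclin-dependent kinase inhibitor, was lower, with a log2 fold change of -1.59 ± 0.12 (adjusted p = 4.98e-05, edgeR). Lin28b had 0 counts in all 6 day 5 libraries. At day 5, 0 of the 10 genes tested in this list were called.

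All 3 HMGB genes fell at day 9, and Hmgb2 had the largest fall of the 9 members. Hmgb2 encodes the HMG-box protein that is abundant in dividing progenitors and low in most adult tissues, and Hmgb1 its widely expressed relative, which can also act as a signal outside cells. Hmgb3 is known from blood and neural stem cells. In mm10, GENCODE places Hmgb1 on chromosome 5 at 149046702 to 149184489 on the minus strand and Hmgb3 on chromosome X at 71555918 to 71560676 on the plus strand, both as protein-coding genes. Hmgb2 lies on chromosome 8 at 57511907 to 57515999 on the plus strand. The upstream sequences of Hmgb2 and Hmgb3 are shown because these 2 genes fell at day 9 and hold both motifs that were searched for as marks of cell cycle promoters. They are the 250 bases before the RefSeq start site (GRCm38.p6, chr8:57511593-57511842 and chrX:71555667-71555916, plus strand), with CCAAT, the box bound by NF-Y, and TTTGAA, the core of the cell cycle homology region, in capitals on either strand.
Hmgb2: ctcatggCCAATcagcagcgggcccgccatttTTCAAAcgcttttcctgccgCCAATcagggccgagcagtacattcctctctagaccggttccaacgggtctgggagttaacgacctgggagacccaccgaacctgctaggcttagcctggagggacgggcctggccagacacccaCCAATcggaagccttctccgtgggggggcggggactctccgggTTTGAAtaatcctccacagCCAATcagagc
Hmgb3: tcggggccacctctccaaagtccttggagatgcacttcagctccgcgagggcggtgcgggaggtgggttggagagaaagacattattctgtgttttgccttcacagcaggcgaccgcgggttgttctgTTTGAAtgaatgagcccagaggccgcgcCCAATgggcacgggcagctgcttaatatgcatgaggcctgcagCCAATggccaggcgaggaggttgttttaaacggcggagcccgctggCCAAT

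In the 300-base window searched, which runs from 250 bases before to 50 bases after the start, Hmgb2 held 4 CCAAT matches at -243, -198, -73 and -11 and 2 TTTGAA matches at -218 and -30, counted to the first base of the match with -1 as the base before the start. Hmgb3 held 3 CCAAT matches at -94, -51 and -5 and 1 TTTGAA match at -122. Of all 32851 RefSeq windows, 37.4% held CCAAT, 3.37% held it 3 times or more, 1.06% held it 4 times or more, 17.9% held TTTGAA and 6.95% held both. Among windows of genes tested at day 9, 4.8% held CCAAT 3 times or more and 1.71% 4 times or more. For genes called lower these shares were 6.23% and 2.55%. TTTGAA was held 2 times or more by 1.03% of windows of genes tested and 1.16% of those called lower. The matches do not overlap each other, and a match is a description of the letters only. Of the 2 Hmgb1 windows, 1 held 3 CCAAT matches and neither held TTTGAA. RefSeq and GENCODE starts differ for these genes. The GENCODE start of Hmgb2, at 57511907, lies past the end of its window at 57511892, and the GENCODE Hmgb1 gene reaches further upstream than both Hmgb1 windows. Positions are therefore those from the RefSeq start only.

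Hmgb1 had 157, 310.4 and 209 CPM in cKO libraries at day 5, against 272, 124 and 150.5 CPM in WT libraries. The highest library of each genotype was the one that stood apart, and the log2 fold change was 0.31 ± 0.39. Its day 9 levels were 112, 149 and 106 CPM in cKO libraries, against 181, 225 and 199.7 CPM in WT libraries, with no overlap. Hmgb1 fell by 0.72 ± 0.15 on the log2 scale, 1.65-fold (adjusted p = 0.00792, edgeR). The annotated span of Hmgb1 overlaps that of Uspl1 on the opposite strand, and whether their exons overlap was not checked. Strand use in the counting is not given in the sources used here, so whether reads of either gene were counted for the other is not known. Uspl1 lay between 19.2 and 23.4 CPM in cKO libraries and between 21.7 and 26.0 CPM in WT libraries at day 9.

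Hmgb2 had 155, 197 and 184 CPM in cKO libraries at day 5, against 218, 111 and 135 CPM in WT libraries. The genotypes overlapped, with WT library 1 highest and WT library 2 lowest of the 6 (log2 fold change 0.21 ± 0.29, and between 0.0182 and 0.536 without 1 library). In day 9 cells Hmgb2 had 15.3, 25.2 and 18.2 CPM in cKO libraries, against 77.1, 106.5 and 86.4 CPM in WT libraries. The highest cKO library, library 2, was still far below the lowest WT library. Hmgb2 fell by 2.18 ± 0.21 on the log2 scale, 4.53-fold (adjusted p = 0.000281, edgeR), with a 95% interval from -2.59 to -1.77. Its fall was called in every alternative but 1, limma on log2(TPM + 1) of the deposited TPM.

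Hmgb3 had 137, 140.4 and 157 CPM in cKO libraries at day 5, against 174, 119 and 129 CPM in WT libraries, a log2 fold change of 0.04 ± 0.22. After 9 days it had 64.2, 70.7 and 64.6 CPM in cKO libraries, against 89.6, 109.7 and 107.8 CPM in WT libraries. The cKO libraries lay close together and below all WT libraries. Hmgb3 fell by 0.62 ± 0.11 on the log2 scale, 1.54-fold (adjusted p = 0.00345, edgeR).

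Other HMG-box proteins outside the canonical HMGB genes did not share 1 direction at day 9. Of 15 tested from the 16 listed, 4 were higher and 3 lower, with a median log2 fold change of 0.04, where 43.6% of all genes were called in either direction. Ssrp1, the HMG-box subunit of the histone chaperone FACT, was lower at 118 ± 5 CPM in cKO cells and 176 ± 17 CPM in WT cells (adjusted p = 0.00449, edgeR). Hmg20b, a subunit of the LSD1 and CoREST complex, was also lower, with a log2 fold change of -0.67 ± 0.14 (adjusted p = 0.00755). Tox, an HMG-box transcription factor of T cell and neural development, was higher at 10.9 ± 1.0 CPM in cKO cells and 4.98 ± 0.80 CPM in WT cells (adjusted p = 0.00181). Its relative Tox3 was higher by 0.41 ± 0.11 on the log2 scale (adjusted p = 0.0177), a call kept in 3 of the 6 fits that leave out 1 library each; on log2(TPM + 1) its value was -0.63. With cKO libraries 1 and 3 left out together, Tox kept its call, while the adjusted p was 0.0591 for Ssrp1, 0.0828 for Hmg20b and 0.0829 for Tox3.

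A list of 7 genes joined the SET complex, which is known to hold HMGB2 together with SET, ANP32A, APEX1 and NM23 proteins, with related histone chaperones. Of these 7, 3 were called at day 9, all lower, a share near the 43.6% of all genes called in either direction, and the median log2 fold change was -0.41. The 3 were Anp32e, a chaperone of the histone variant H2A.Z, with a log2 fold change of -0.69 ± 0.15 (adjusted p = 0.00746, edgeR), Anp32b at -0.45 ± 0.12 (adjusted p = 0.0200), which are relatives of ANP32A, and Anp32a itself at -0.39 ± 0.13 (adjusted p = 0.0373). Anp32b kept its call in 3 and Anp32a in 2 of the 6 fits without 1 library, and with cKO libraries 1 and 3 left out together none of the 3 was called (Anp32e -0.50 with adjusted p = 0.0994, Anp32b -0.34 with 0.212, Anp32a -0.23 with 0.352). Of the complex itself, Set had 126 ± 21 CPM in cKO cells and 123.5 ± 13.8 CPM in WT cells (adjusted p = 0.888), and neither Apex1 (adjusted p = 0.0574) nor Nme1 (adjusted p = 0.657) was called. Of the 6 listed receptors of extracellular HMGB1, 2 could be tested at day 9. Cxcr4, the chemokine receptor that binds a complex of HMGB1 and CXCL12, had 6.08, 7.34 and 6.89 CPM in cKO libraries, against 1.10, 1.04 and 1.31 CPM in WT libraries. It was 5.89-fold higher (log2 fold change 2.56 ± 0.22, adjusted p = 8.75e-05), and its groups at day 5 overlapped.

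**Figure D2:**
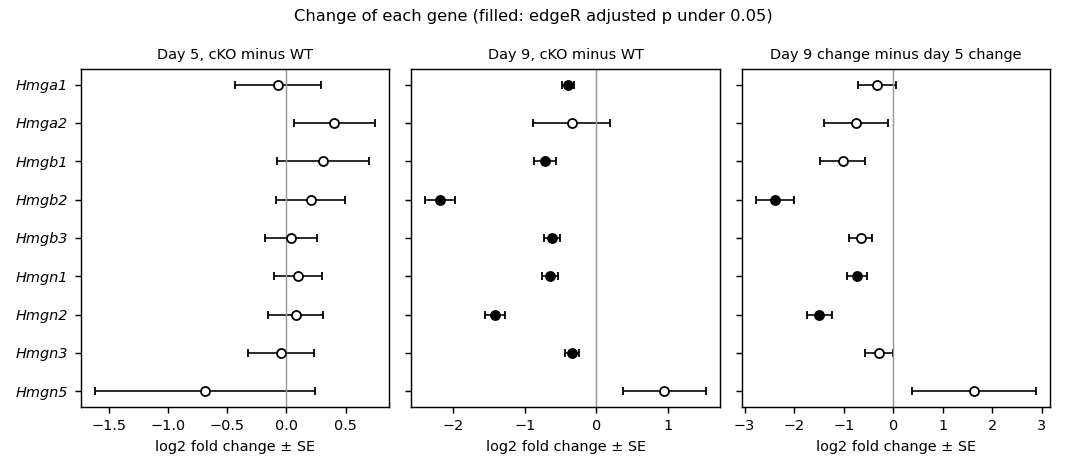
Log2 fold change of each HMG gene (horizontal axis, ± 1 SE) for cKO minus WT at day 5, for cKO minus WT at day 9, and for the day 9 change minus the day 5 change. Filled points have an adjusted p under 0.05 in edgeR: none at day 5, 7 genes at day 9, and Hmgb2, Hmgn1 and Hmgn2 for the difference between days; the horizontal scales differ between the panels.

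Of the HMGN genes, Hmgn2 and Hmgn1 encode the abundant, closely related nucleosome-binding proteins. Hmgn2 lies on chromosome 4 at 133964738 to 133968650 and Hmgn1 on chromosome 16 at 96120618 to 96127729, both on the minus strand. Their upstream sequences are shown for contrast with the HMGB promoters, since both genes fell at day 9 and neither window held TTTGAA. They are again the 250 bases before the RefSeq start site, read on the gene's strand (GRCm38.p6, chr4:133967992-133968241 and chr16:96127726-96127975, minus strand), with CCAAT in capitals. The Hmgn2 start site used by RefSeq lies inside the GENCODE gene, which also has transcripts that begin further upstream.
Hmgn2: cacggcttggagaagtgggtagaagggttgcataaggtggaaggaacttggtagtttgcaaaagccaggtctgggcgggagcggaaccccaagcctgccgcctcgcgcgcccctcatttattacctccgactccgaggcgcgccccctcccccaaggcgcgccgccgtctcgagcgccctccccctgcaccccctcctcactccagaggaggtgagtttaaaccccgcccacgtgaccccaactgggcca
Hmgn1: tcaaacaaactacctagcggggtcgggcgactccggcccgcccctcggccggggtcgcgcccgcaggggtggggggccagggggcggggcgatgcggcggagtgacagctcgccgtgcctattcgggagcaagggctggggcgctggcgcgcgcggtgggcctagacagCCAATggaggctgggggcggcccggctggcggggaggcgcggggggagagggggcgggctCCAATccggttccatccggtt

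Hmgn1 held 2 CCAAT matches at -81 and -21. The single CCAAT match of Hmgn2, at -3, runs past the start site and so has no capitals in the stretch shown. GGGCGG, the box bound by SP1, was in 35.7% of all windows and 62.5% of those of genes tested at day 9, and was found for 7 of the 8 members that had a window, Hmgn5 being the exception. No window was matched for Hmgn3. Among genes tested at day 9, CCAAT was in 42.2% of windows of genes called lower and 36.3% of those called higher, and TTTGAA in 12.4% of windows of genes called lower and 11.1% of those called higher.

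Hmgn2 had 777, 589 and 827 CPM in cKO libraries at day 5, against 591, 701.5 and 786 CPM in WT libraries. The lowest values were those of cKO library 2 and WT library 1, and the log2 fold change was 0.08 ± 0.23. By day 9 Hmgn2 had 118, 163.5 and 129 CPM in cKO libraries, against 349.7, 389 and 359 CPM in WT libraries. Every cKO library was below every WT library by a margin wider than the range within either genotype. Hmgn2 fell by 1.42 ± 0.14 on the log2 scale, 2.67-fold (adjusted p = 0.000207, edgeR), the second largest fall of the 9. Named copies held at most 4.88% of the Hmgn2 count in any library, and at most 2.45% for Hmga1, 2.26% for Hmgb1 and 0.214% for Hmgb3, and how reads were divided between them is not given in the sources used here. Copies with Gm numbers and copies of the other members were not counted, so these values are no upper limit for all copies.

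Hmgn1 had 268.5, 251 and 323 CPM in cKO libraries at day 5, against 281, 231 and 277 CPM in WT libraries, a log2 fold change of 0.09 ± 0.20. Its day 9 levels were 124, 146 and 129 CPM in cKO libraries, against 192, 218 and 216 CPM in WT libraries, with no overlap. Hmgn1 fell by 0.65 ± 0.11 on the log2 scale, 1.56-fold (adjusted p = 0.00297, edgeR).

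Hmgn3 encodes an HMGN protein known from the eye, the brain and pancreatic islets of the mouse. It had 49.4, 56.1 and 62.1 CPM in cKO libraries at day 5, against 78.2, 43.1 and 52.0 CPM in WT libraries. WT library 1 was the highest and WT library 2 the lowest of the 6 (log2 fold change -0.05 ± 0.28). At day 9 it had 35.2, 37.7 and 34.2 CPM in cKO libraries, against 44.1, 47.1 and 45.0 CPM in WT libraries, with no overlap and the smallest fall among the called members. Hmgn3 fell by 0.34 ± 0.10 on the log2 scale, 1.27-fold (adjusted p = 0.0245, edgeR). This call was the least firm: it was kept in 1 of the 6 fits that leave out 1 library each, the fit without cKO library 2, with adjusted p between 0.0145 and 0.0882.

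Hmgn5, an X-linked HMGN gene with a long acidic tail, did not separate the genotypes at either day. At day 5 it had 7.95, 28.9 and 6.28 CPM in cKO libraries, against 53.6, 7.85 and 8.09 CPM in WT libraries. The 2 high values were those of the libraries that stood apart, cKO library 2 and WT library 1, and the other 4 lay between 6.28 and 8.09 CPM. The part of the neuron markers in this was not tested. At day 9 it had 3.27, 0.905 and 3.52 CPM in cKO libraries, against 1.61, 1.47 and 0.669 CPM in WT libraries, from 21, 36 and 25 counts in cKO libraries and 57, 41 and 23 counts in WT libraries. The cKO libraries 1 and 3 were the highest of the 6 and were also those with the large structural RNA share. The log2 fold change was 0.95 ± 0.58 (adjusted p = 0.213, edgeR); it was 1.43 (adjusted p = 0.0152) without cKO library 2 and -0.49 with cKO libraries 1 and 3 left out together, and its adjusted p lay between 0.0152 and 0.508 in the fits without 1 library.

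Linker histones compete with HMGN proteins for nucleosomes. Of 7 tested at day 9, 3 were called, all lower, a share near the 43.6% of all genes called in either direction, and the median log2 fold change was -0.43. H1fx, a replication-independent linker histone, had 11.7, 12.5 and 11.96 CPM in cKO libraries, against 33.9, 28.5 and 29.1 CPM in WT libraries, a log2 fold change of -1.34 ± 0.12 (adjusted p = 0.000145, edgeR). H1f0, the linker histone of cells that leave the cycle, was lower, with a log2 fold change of -0.69 ± 0.12 (adjusted p = 0.0033). Hist1h1c was lower, with a log2 fold change of -0.43 ± 0.13 (adjusted p = 0.0273), a call kept in 1 of the 6 fits without 1 library and lost with cKO libraries 1 and 3 left out together (adjusted p = 0.0589). Replication-dependent histone transcripts mostly lack a poly(A) tail, and these libraries were made from polyadenylated RNA.

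Markers of the cell cycle and of several cell types also differed between the genotypes at day 9. The S phase list had 11 of 12 genes lower and 0 higher, with summed levels between 156 and 186 CPM in cKO libraries and between 614 and 812 CPM in WT libraries, and the G2 and M phase list had 11 of 12 lower and 0 higher, with sums between 52.5 and 71.2 CPM in cKO libraries and between 485 and 620.5 CPM in WT libraries. Of 10 neural progenitor markers, 6 were lower and 2 higher, with sums from 1671 to 1902 CPM in cKO libraries and from 3207 to 3641 CPM in WT libraries. All 10 oligodendrocyte lineage markers tested of 12 listed were higher, with sums from 3247 to 4292 CPM in cKO libraries and from 502 to 824 CPM in WT libraries. Of 10 astrocyte markers 8 were higher and 0 lower, with sums from 3225 to 3922 CPM in cKO libraries and from 1959 to 2279 CPM in WT libraries. Of 9 neuron markers tested 7 were higher and 0 lower, with sums from 527 to 594 CPM in cKO libraries and from 135 to 296.5 CPM in WT libraries. Of 6 endothelial and mural markers 2 were tested and both were higher, with sums from 3.74 to 5.91 CPM in cKO libraries and from 2.41 to 2.66 CPM in WT libraries, and Cdh5 was at 0. Of 6 microglia markers 0 could be tested; their sums were at most 1.27 CPM in cKO libraries and 0.349 CPM in WT libraries, and Aif1 was at 0. At day 5, 0 genes of these 8 lists were called. The part of these differences in the fall of the HMG genes was not tested.

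**Figure D3:**
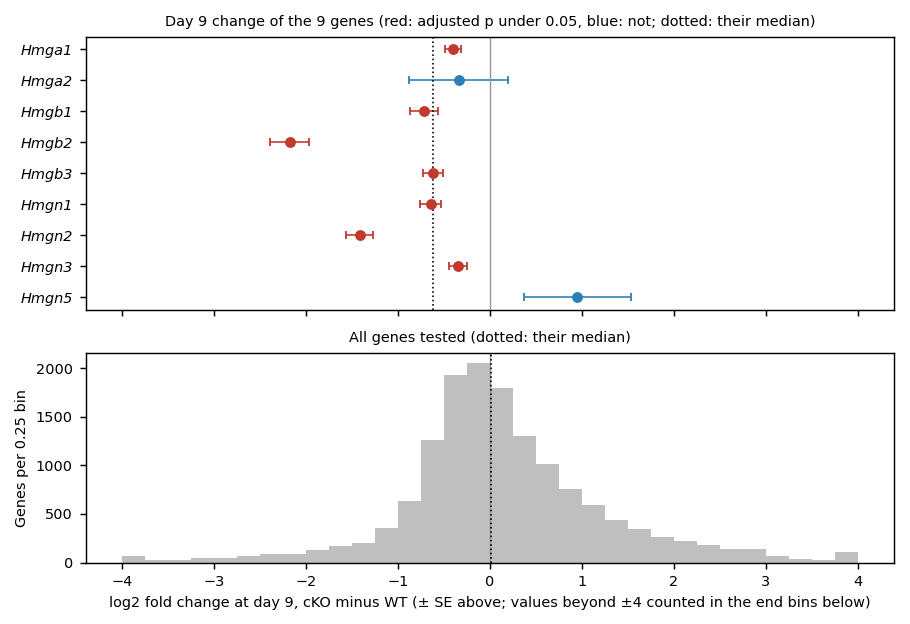
Log2 fold change at day 9, cKO minus WT (horizontal axis of both panels). The upper panel gives each HMG gene with ± 1 SE, in red where the adjusted p is under 0.05 and in blue where it is not; the lower panel counts all 14617 genes tested in bins of 0.25, and the dotted lines mark the medians, -0.62 above and 0.01 below.

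The fit over all 12 libraries tested whether the change in cKO cells differed between the days. Of the 9 members, 3 had a more negative change at day 9 than at day 5, and 0 a more positive one, where 7.71% of the 15323 genes tested were called, 5.14% in the negative direction and 2.57% in the positive one. Hmgb2 differed most, by -2.39 ± 0.39 on the log2 scale (adjusted p = 0.00325, edgeR), and Hmgn2 by -1.49 ± 0.25 (adjusted p = 0.00395). Both were called in all 12 fits that leave out 1 library each. With cKO libraries 1 and 3 of day 9 left out together the difference was -1.94 for Hmgb2 (adjusted p = 0.0514) and -1.12 for Hmgn2 (adjusted p = 0.173), and neither was called. Hmgn1 differed by -0.74 ± 0.20 (adjusted p = 0.0485), a call kept in 3 of the 12 fits. With structural RNA left out its difference was -0.75 (adjusted p = 0.0509), and with cKO libraries 1 and 3 of day 9 left out together -0.50 (adjusted p = 0.519).

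Hmgb1 and Hmgb3 had differences of -1.02 ± 0.45 and -0.66 ± 0.23 and were not called (adjusted p = 0.253 and 0.136, edgeR). Without WT library 1 of day 5, which stood apart, both were called (log2 difference -1.46 with adjusted p = 0.0433 for Hmgb1, and -0.86 with adjusted p = 0.0194 for Hmgb3). Their adjusted p over the 12 fits without 1 library lay between 0.0433 and 0.444 for Hmgb1 and between 0.0194 and 0.305 for Hmgb3. Hmga1, Hmga2, Hmgn3 and Hmgn5 were not called, with adjusted p between 0.543 and 0.700. The 95% interval of the Hmga1 difference ran from -1.09 to 0.43.

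The members were also compared with each other inside each library, on the deposited TPM values, which are per transcript length; such ratios do not depend on the scaling between libraries. At day 5 Hmgn2 had the highest TPM of the 9 in every library, from 625.5 to 1049 TPM in cKO libraries and from 916 to 963 TPM in WT libraries. At day 9 it was still highest in all 3 WT libraries, at 638, 565 and 653 TPM, and in cKO library 2, at 418 TPM. In cKO libraries 1 and 3, Hmgn1 stood above it, with 58.0 TPM and 68.3 TPM for Hmgn1 against 52.0 TPM and 60.4 TPM for Hmgn2. Those libraries were the ones with a structural RNA share of 72.9% and 71.6%, and the part of that share in the order was not tested. Hmgb2 was seventh of the 9 in all 6 day 9 libraries, and Hmga2 and Hmgn5 held the last places, in either order, in all 12 libraries.

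Hmgb2 held a smaller share of the HMGB subfamily in cKO cells at day 9. Hmgb2 made up 6.07 ± 1.01% of summed HMGB TPM in cKO libraries and 16.1 ± 0.9% in WT libraries (SD, n = 3 each), a difference of -10.05 percentage points with no overlap. Hmgb1 took 56.0 ± 1.6% in cKO libraries and 51.4 ± 0.8% in WT libraries, and Hmgb3 took 37.9 ± 1.9% in cKO libraries and 32.4 ± 1.3% in WT libraries. The ratio of Hmgb1 TPM to Hmgb2 TPM was 11.4, 8.25 and 8.63 in cKO libraries, against 3.29, 2.996 and 3.31 in WT libraries. At day 5 the same ratio was 1.69, 2.31 and 1.81 in cKO libraries, against 1.94, 1.755 and 1.85 in WT libraries, and overlapped.

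Among the HMGN genes the smaller share was that of Hmgn2. It made up 41.5 ± 4.7% of summed HMGN TPM in cKO libraries and 56.1 ± 0.8% in WT libraries at day 9, a difference of -14.6 points. Hmgn1 took 41.2 ± 4.2% in cKO libraries and 32.5 ± 0.7% in WT libraries, and Hmgn3 took 16.8 ± 0.2% in cKO libraries and 11.3 ± 0.1% in WT libraries. Each of these 6 shares of Hmgb1, Hmgb2, Hmgb3, Hmgn1, Hmgn2 and Hmgn3 separated the genotypes completely at day 9, with an exact two-sided permutation p of 0.1, the smallest that 3 against 3 libraries allow, so none can pass 0.05. The shares of Hmga1, Hmga2 and Hmgn5 overlapped at day 9. At day 5 all 9 shares overlapped, with exact permutation p between 0.2 and 0.9. A share of a sum says that members differed unequally, not which of them differed.

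**Figure D4:**
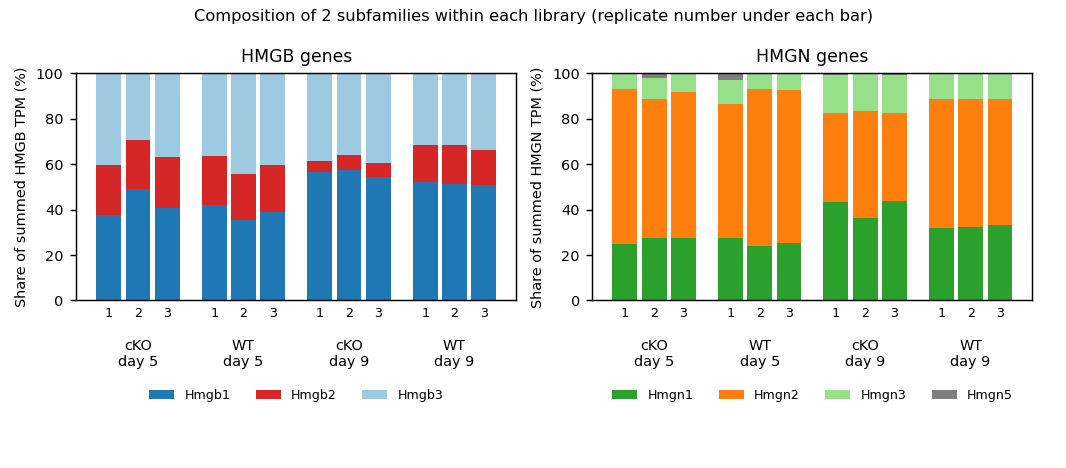
Share of each gene in the summed TPM of its subfamily (vertical axis, percent) in every library, for the HMGB genes and the HMGN genes; each bar is 1 library with its replicate number below, and cKO stands left of WT at each day. At day 9 Hmgb2 holds 6.07% on average in cKO libraries and 16.1% in WT libraries, and Hmgn2 holds 41.5% in cKO libraries and 56.1% in WT libraries.

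The genes whose pattern over the 12 libraries was closest to the most changed member of each subfamily were found by the root mean square difference of log2 CPM from the WT mean of the day, among 9101 genes with at least 5 CPM on average at each day. For Hmgb2 they were Mad2l1 (0.198), a spindle checkpoint protein, Msn (0.198), which links membrane and actin, Zwilch (0.201), a kinetochore protein, and Ubash3b (0.203), a phosphatase, where the median of all genes was 1.14. Mad2l1 had 4.91 ± 0.95 CPM in cKO cells and 26.2 ± 4.8 CPM in WT cells at day 9, and Msn had 59.2 ± 5.6 CPM in cKO cells and 287 ± 43 CPM in WT cells. For Hmgn2 they were Arl6ip1 (0.0814), a protein that shapes the endoplasmic reticulum, Fam181b (0.110), Limd1 (0.114), a LIM domain scaffold, and Dut (0.120), the enzyme that breaks down dUTP, where the median was 0.730. Arl6ip1 had 125 ± 21 CPM in cKO cells and 357 ± 29 CPM in WT cells at day 9. For Hmga1 they were Mus81 (0.0557), a nuclease of DNA repair, Gadd45gip1 (0.0598), a mitochondrial ribosome protein, and the translation initiation factors Eif2b5 (0.0606) and Eif3h (0.0625), where the median was 0.444. These values describe likeness over libraries that share depth and day, and carry no test.

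**Figure D5:**
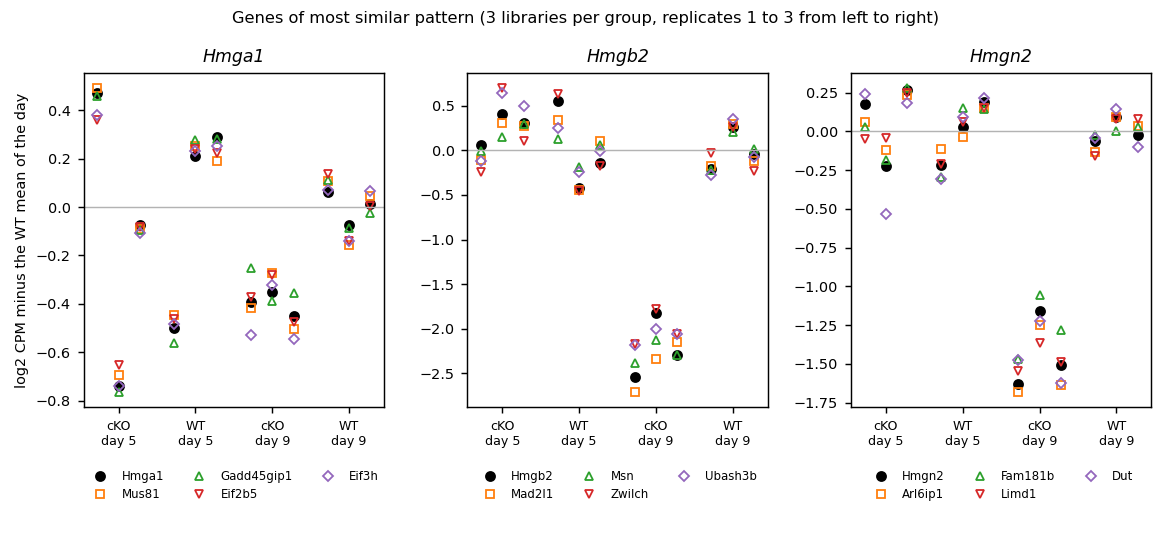
Hmga1, Hmgb2 and Hmgn2 (black) with the 4 genes of most similar pattern each, as log2 CPM minus the WT mean of the same day (vertical axis) in the 12 libraries, cKO left of WT at each day. The Hmgb2 panel shows the day 9 cKO libraries between -2.54 and -1.82 for Hmgb2; the Hmga1 panel shows the spread within day 5, from -0.74 to 0.47 in cKO libraries, to be wider than the day 9 change.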

How the data were processed

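The authors deposited a table of expected counts and a table of TPM for each day, with 1 column per library. Per the submitters' processing notes, RSEM and Bowtie2 were run with mm10; which annotation, trimming and strand setting were used is not given in the sources used here. TPM values are as scaled by the authors. Day 5 rows are Ensembl identifiers (97.96% had a symbol in the reference) and day 9 rows are symbols (97.75% were found there). The expected counts were rounded to whole numbers, and edgeR 4.0.16 under R 4.3.3 gave robust quasi-likelihood tests after filterByExpr and TMM scaling, adjusted by Benjamini-Hochberg over all genes tested and called at 0.05. The days were fitted separately; a fit of 12 libraries tested the difference between days. An SE is the absolute log2 fold change over the root of the F statistic, and a 95% interval spans 1.96 SE on either side, so both rest on 3 libraries a group. The multiplier 1.96 takes no account of the few degrees of freedom, so these intervals are likely too narrow. The common biological coefficient of variation was 0.405 at day 5 and 0.267 at day 9. Shares were tested by exact permutation over libraries (SciPy 1.17.1). Alternatives were DESeq2 1.42.0, RLE scaling, no low count filter, structural RNA left out, the replicate number as a term, limma 3.58.1 on log2 TPM with pseudocounts of 1 and 0.1, and libraries left out. Scripts were tested on simulated data. There the day 9 fit recovered 23 of 50 genes lowered and 33 of 50 raised by 1 on the log2 scale, with 20 false calls. The fit of the day difference recovered 1 of 50 lowered and 0 of 50 raised by 1, with 1 false call.

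The members, the gene lists and the libraries described as standing apart were chosen with earlier results of these data known. Named genes were the 9 members, Lmnb1, up to 4 called genes per companion list with the smallest adjusted p at day 9, and the 4 genes nearest in pattern to the most changed member of each subfamily. Set, which gives its list the name, with Apex1 and Nme1 of the same complex, Cdkn2a and Hmgb4 were added after their values were seen. Structural RNA comprised the rRNA, snRNA, snoRNA, misc_RNA and similar biotypes of GENCODE, with Gm42418, Gm26917, Lars2 and 4 further named features. Promoter windows were those of RefSeq for GRCm38.p6, matched for 8 of the 9 members.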

Additional observations from a re-analysis of the deposited data

Results flagged for a closer look

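For 3 of the 9 genes the change in cKO cells differed between the days in the test of the difference itself (edgeR, Benjamini-Hochberg over 15323 genes, of which 7.71% were called in either direction). The day 9 change minus the day 5 change was -2.39 on the log2 scale for Hmgb2, -1.49 for Hmgn2 and -0.74 for Hmgn1. Hmgb2 was lower in 3 of 3 cKO libraries than in every WT library at day 9, as were Hmgn2 and Hmgn1, while each of the 3 genes overlapped between genotypes at day 5. This order was common: 30.2% of all genes tested had it at day 9, and 27.6% had the reverse. It also held for Hmga1, Hmgb1, Hmgb3 and Hmgn3, whose difference between days was not called. At day 5, 1.35% of genes had this order and 1.5% the reverse. The S phase and G2 and M phase markers and the glial and neuron markers also differed between the genotypes at day 9, and their part in these differences was not tested. The structural RNA share at day 9 was 72.9% and 71.6% in cKO libraries 1 and 3 and 0.368% in cKO library 2. In WT libraries it lay between 16.05% and 35.1%, and its part in these differences was not tested. With cKO libraries 1 and 3 of day 9 left out together, the differences were -1.94 for Hmgb2, -1.12 for Hmgn2 and -0.50 for Hmgn1.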

How the results depend on the processing

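At day 9, DESeq2, RLE scaling, no filter and structural RNA left out gave 6 or 7 members lower and 0 higher, and at day 5 every alternative gave 0 members. Genes called at day 5 were 8 with DESeq2, 2 with limma on log2(TPM + 0.1), 19 without cKO library 2 and WT library 1, and 0 with no filter, with rescaled TPM and without any 1 library. The median of all genes at day 9 was -0.91 with log2(TPM + 1), -1.09 with log2(TPM + 0.1), 0.35 with DESeq2 and 0.10 with no filter. It was -0.20 with TPM rescaled without structural RNA, an alternative chosen after seeing the data, which called 5 members lower at day 9 (Hmgb1, Hmgb2, Hmgb3, Hmgn1 and Hmgn2). Of the 13789 genes tested there, 2663 were called lower and 1886 higher.

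With pseudocounts of 1 and 0.1 on unscaled TPM, 296 and 418 genes and 0 and 1 members (Hmgb2) were called at day 9, and 111 and 224 genes (22 higher and 202 lower) and 0 and 0 members for the day difference. The values that turned were -0.11 and -0.11 for Hmgb3, -0.0625 and -0.0627 for Hmgn1 and -0.14 and -0.14 for Hmgn2 at day 5, -0.11 and -0.16 for Hmgn5, -0.63 and -0.70 for Tox3 and -0.13 and -0.20 for Dicer1 at day 9, -0.0751 for Cdkn2b with 0.1, and -0.54 and -0.59 for Lmnb1 in the difference. Day 5 values also turned for Hmgb3 with no filter (-0.00532), Hmgn2 with rescaled TPM (-0.0128) and Hmgn3 without the pair that stood apart (0.229). The cause was not tested.

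Without cKO libraries 1 and 3 of day 9, 3344 genes and 4 members were called at day 9, Hmgn5 was -0.494, and 452 genes and 0 members were called for the difference; without the day 5 pair, 2535 genes and 5 members were. Fits without 1 library called between 4063 (without cKO library 1) and 7507 genes and 6 to 8 members at day 9, and between 756 and 2410 genes and 2 to 5 members for the difference. Their day 5 values ran from -0.394 to 0.185 for Hmga1, -0.0133 to 0.720 for Hmgb1, -0.0657 to 0.223 for Hmgb3, -0.0319 to 0.156 for Hmgn1, -0.0344 to 0.203 for Hmgn2, -0.219 to 0.231 for Hmgn3 and -1.74 to 0.861 for Hmgn5. Hmga2 ran from -0.795 to 0.197 at day 9, and the Hmga1 difference from -0.589 to 0.0136.

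Replicate numbers did not pair the samples: same-numbered deviations correlated at -0.72, -0.50 and 0.53 at day 5 and at -0.00138, -0.20 and -0.0628 at day 9. With replicate block, 0 genes were called at day 5, 5514 genes and 6 members at day 9, and 322 genes and 1 member (Hmgb2) for the difference, where Hmgn2 was at -1.51 (adjusted p = 0.0527) and Hmgn1 at -0.74 (adjusted p = 0.248). Day 9 differences of shares, in points, moved to 7.25 for Hmgb1, -13.4 for Hmgb2 and 4.34 for Hmgn3 on expected counts, to 2.24 for Hmgb1, -2.52 for Hmgb2, 2.09 for Hmgb3, 4.28 for Hmgn1 and 3.02 for Hmgn3 as shares of all 9 members, and to 2.65 for Hmga2 and 0.765 for Hmgn5 with 1 added to each TPM. Counts of at most 57 per library limit Hmga2 and Hmgn5 at day 9.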
